A study of Mesocricetus auratus with 6 samples.

Results

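The genes described here build, load and guard the endoplasmic reticulum (ER) of the uterus of pregnant golden hamsters: chaperones and folding enzymes, the machinery that targets and translocates new proteins into the ER, the degradation of misfolded proteins, and the sensors and effectors of the unfolded protein response. They were listed by function, as 56 symbols. Ero1l is an older symbol of Ero1a, which leaves 55 genes, and 52 of them were measured among the 12393 genes with a probe set of a single gene symbol. Srp54a and Sec61g were represented only by probe sets shared with other genes, and Srp72 had no annotated probe set, so these 3 genes were not analysed here. Where a gene had several probe sets, the probe set was chosen by the highest mean over the 6 arrays. The list itself was selected from gene functions with earlier results of the same comparison known, in which several of these genes differed, so the counts below describe the listed genes and are no independent evidence for the group.

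The 6 arrays were 3 of embryo implantation sites and 3 of interimplantation sites, the stretches of uterus between embryos, all from untreated Syrian golden hamsters on day 5 of pregnancy, for which the labels name no strain, allele or age. The design text gives 3 RNA sets of 3 animals per site and does not say whether equal replicate numbers share an animal. A human array of the same RNA was not analysed here. The values are log2 RMA signals (robust multi-array averaging, which evens out the arrays' distributions), measured with Affymetrix probes designed on mouse sequence, so mismatches with hamster RNA can dim a probe set or shrink its difference. Levels of different genes were therefore not ranked.

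A protein bound for secretion or for a membrane is recognised by the signal recognition particle as it leaves the ribosome, enters the ER through the Sec61 translocon, loses its signal peptide to signal peptidase and receives its first sugars from oligosaccharyltransferase. Inside, chaperones and disulphide isomerases fold it, and failures are sent back to the cytosol for degradation. When unfolded proteins accumulate, the sensors Ire1 (Ern1), Perk (Eif2ak3) and Atf6 start the unfolded protein response, whose transcription factors raise the chaperone genes. In the mouse, this response has been studied in the uterine stroma as it turns into secretory decidua around the embryo.

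Differences are implantation minus interimplantation on the log2 scale with the standard error (SE) of a limma fit over 22626 probe sets. A gene was called at a Benjamini-Hochberg adjusted p under 0.05 over all of these probe sets, and every adjusted p below comes from this fit unless another setting is named. The array medians ran from 4.55 to 4.57. Among 27 control probe sets for Bacillus transcripts, which no hamster RNA should match, the brightest had a mean of 5.79, and 29 of the 52 ER genes lay above it. Interimplantation array 1 stood apart from interimplantation arrays 2 and 3 on the second principal component, at −20.7 against 11.6 and 7.67. A control for the murine B1 repeat read 6.21 and 5.53 on interimplantation arrays 2 and 3, against 7.46 to 7.57 on the others. That for the B2 repeat read 6.64 and 6.63 there, against 7.58 to 7.74. The cause of these low repeat signals, and their bearing on the ER genes, was not tested. The hybridisation controls, bacterial and phage transcripts added to every sample, averaged 6.64 ± 0.17 on the implantation arrays and 7.03 ± 0.27 on the interimplantation arrays (SD, n = 3 each). Their groups overlapped, with 6.77 on implantation array 3 and 6.75 on interimplantation array 2. After RMA a direction is relative to the typical gene. When every array was shifted to equal controls, the median difference of all genes became 0.38 in place of −0.020, with 450 genes higher and 8 lower in place of 169 and 146.

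Of the ER chaperones and folding enzymes 6 were higher at the implantation site, while no sensor or effector of the unfolded protein response differed detectably. The RNA came from whole uterine tissue, in which fewer cells of a type and less RNA per cell cannot be told apart, and implantation sites can hold embryonic cells. Of the 52 ER genes, 9 were called higher, 1 was called lower and 42 did not pass. The background over all 12393 genes was 1.36% called higher and 1.18% called lower, so the higher calls among ER genes (17.3%) lay above it and the lower calls (1.92%, a single gene) near it. Among the 3294 genes above the brightest Bacillus control, 3.49% were called higher and 2.61% lower, against 9 and 1 of the 29 ER genes above it. The median difference was 0.088 over the ER genes and −0.020 over all genes. By class, these 6 of 16 chaperones and folding enzymes rose (median 0.33), as did 3 of 23 targeting and translocation genes (median 0.034). Of 6 degradation genes 1 fell (median −0.065), and of 7 sensors and effectors none passed (median 0.023).

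**Figure D1:**
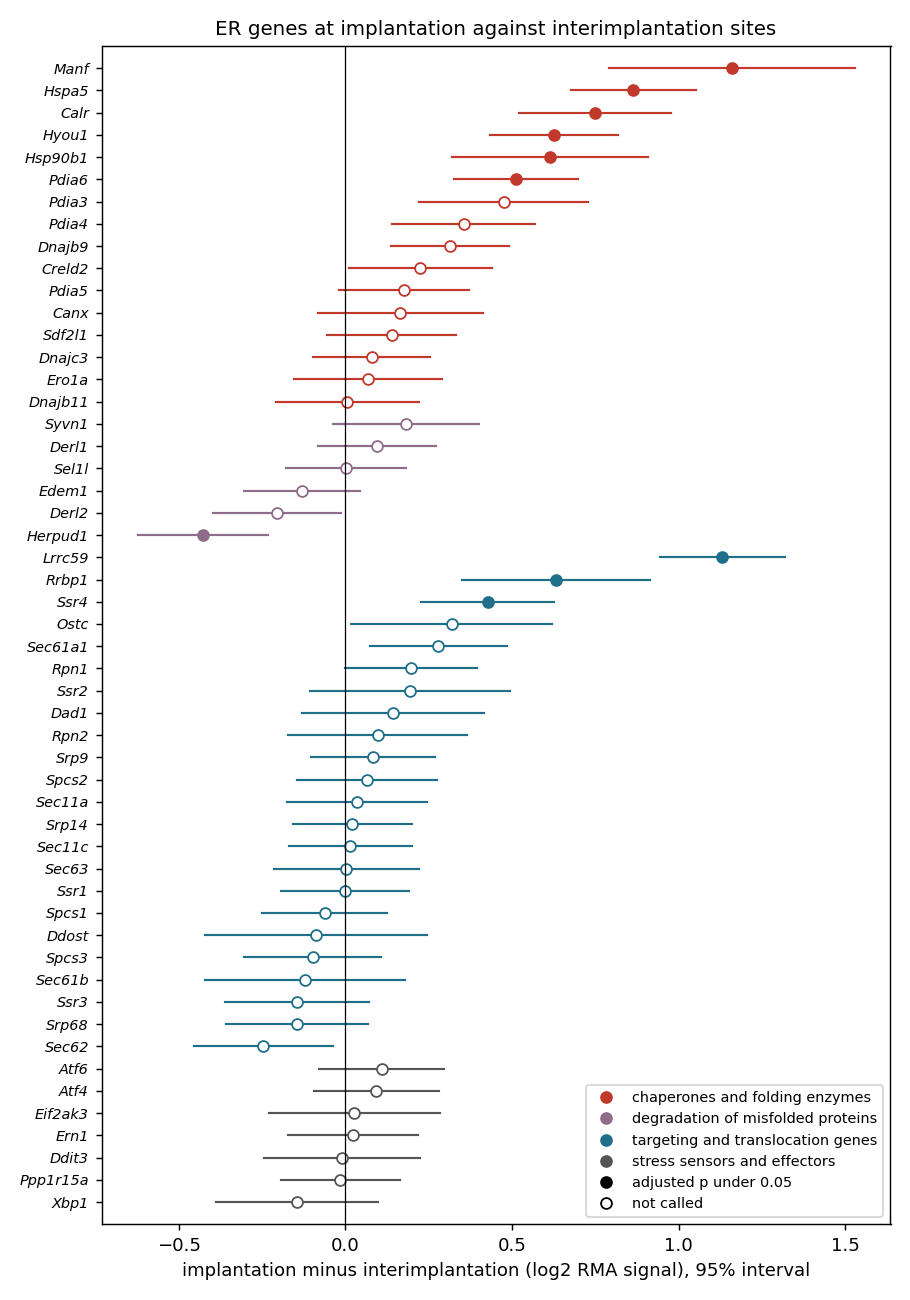
Implantation minus interimplantation differences (log2 RMA signal, horizontal axis) of the 52 measured ER genes, 1 row per gene, with 95% intervals, coloured by class. Filled points were called at an adjusted p under 0.05: 9 lie right of 0, led by Manf and Lrrc59, and Herpud1 lies left of it, while all 16 chaperones and folding enzymes lie right of 0 and all 7 sensors and effectors have intervals that include 0.

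Of 5 chaperones of the Hsp70 and Hsp90 families and their partners, 4 rose. Hspa5, also called BiP, is the Hsp70 of the ER lumen and binds and silences the stress sensors until unfolded proteins draw it away. It read 9.37, 9.27 and 9.24 on implantation arrays 1 to 3, against 8.48, 8.32 and 8.49 on interimplantation arrays 1 to 3. The groups lay far apart for the spread within them, and Hspa5 rose 1.82-fold (difference 0.86, SE 0.086, adjusted p = 4.53e-04). A dimmer probe set read 3.07, 3.02 and 3.05 at implantation sites, against 2.37, 2.72 and 2.40 at interimplantation sites (0.55, adjusted p = 0.0131). The gene was called under all 14 alternative settings that measured it, at 0.71 to 1.26.

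Hyou1, an Hsp70-related protein that exchanges the nucleotide of Hspa5, read 8.29, 8.43 and 8.45 at implantation sites, against 7.66, 7.84 and 7.79 at interimplantation sites. The groups did not overlap, and Hyou1 rose 1.54-fold by this probe set (difference 0.63, SE 0.088, adjusted p = 0.00324). Its 3 probe sets disagreed in size but not in sign. A second gave 6.76, 6.37 and 6.25 at implantation sites, against 4.83, 5.39 and 5.25 at interimplantation sites, a difference of 1.30 (adjusted p = 0.00121). The third gave only 0.13 (adjusted p = 0.548).

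Manf, a small secreted protein that is held in the ER together with Hspa5, had the largest difference of the 52 genes by the brightest probe sets. It read 7.99, 7.62 and 7.69 at implantation sites, against 6.14, 6.78 and 6.90 at interimplantation sites. All implantation arrays exceeded all interimplantation arrays, and interimplantation array 1 was the lowest by a wide margin. Manf rose 2.23-fold (difference 1.16, SE 0.17, adjusted p = 0.00381), and by 0.93 without interimplantation array 1, still called.

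Hsp90b1, the Hsp90 of the ER, which folds integrins and Toll-like receptors, read 6.66, 6.80 and 6.29 at implantation sites, against 5.81, 6.20 and 5.90 at interimplantation sites. The groups came within 0.1 of each other, and the rise of 1.53-fold was the weakest call among the chaperones (difference 0.61, SE 0.13, adjusted p = 0.0371). Dropping any one of implantation arrays 1 and 2 and interimplantation arrays 1 and 3 ended its call (adjusted p 0.0595 to 0.168). The dimmer probe set of Hsp90b1 was at 0.090 with overlapping groups (adjusted p = 0.745), and averaging its probe sets also ended the call. Sdf2l1, which works with Hspa5 and its J-domain partners, was at 0.14 and was not called.

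Of the lectin chaperones 1 was called. Calr, the calcium-binding soluble chaperone calreticulin, read 10.42, 10.69 and 10.38 at implantation sites, against 9.60, 9.82 and 9.83 at interimplantation sites. The groups did not overlap and Calr rose 1.68-fold (difference 0.75, SE 0.10, adjusted p = 0.00310), with its other probe sets at 0.31 and 0.26. Canx, its membrane-bound relative calnexin, was at 0.17 (95% interval −0.082 to 0.41) and was not called, and its groups overlapped. Its signal was below the brightest Bacillus control, unlike that of Calr. Whether the differences of Calr and Canx differ from each other was not tested.

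**Figure D2:**
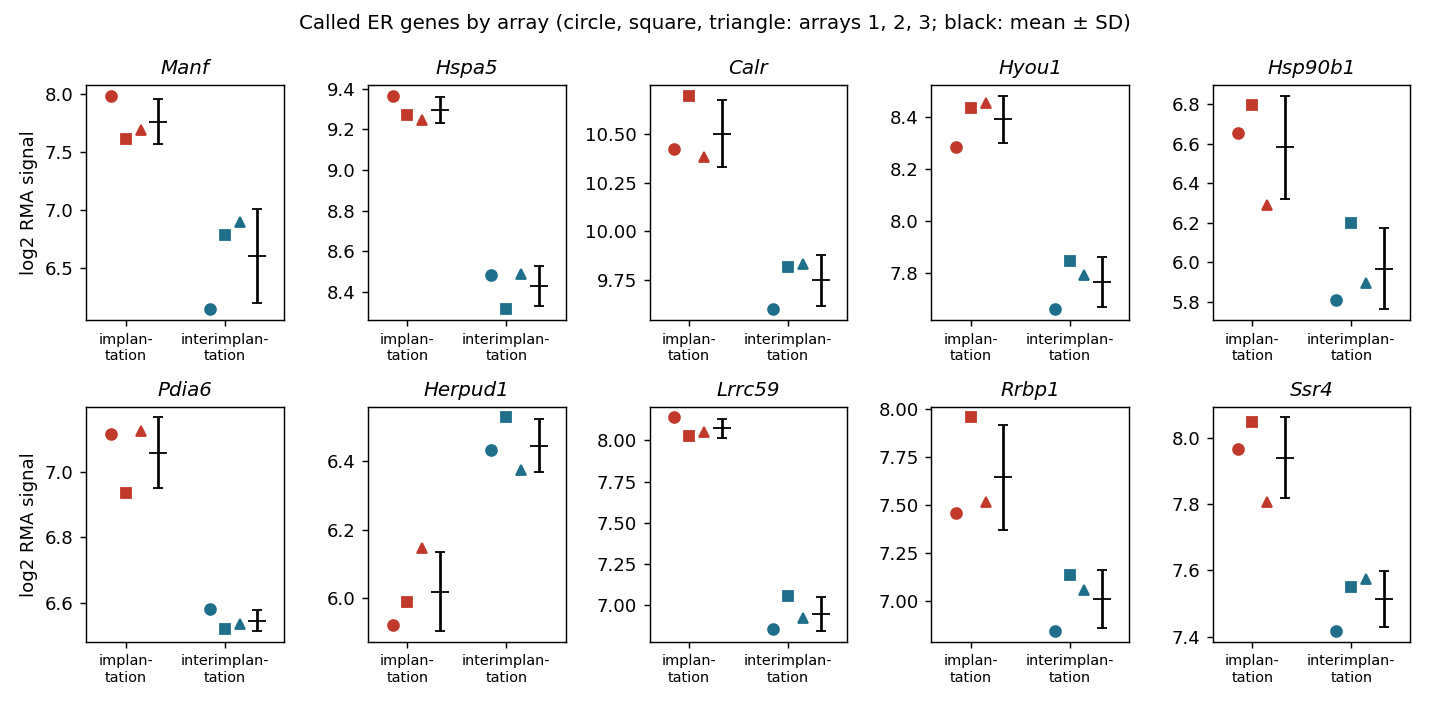
Levels (log2 RMA signal, vertical axis, its range set for each gene) of the 10 called ER genes on the implantation arrays (left, red) and the interimplantation arrays (right, blue), 3 arrays each, with the mean ± SD in black. The groups do not overlap in any of the 10 panels, and interimplantation array 1 (circle) is the lowest point for Manf, Calr, Hyou1, Hsp90b1, Lrrc59, Rrbp1 and Ssr4.

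Disulphide isomerases and oxidases make and shuffle the disulphide bonds of new proteins. The 6 on the list were all positive in direction by their brightest probe sets, with 1 call. Pdia6 read 7.12, 6.93 and 7.13 at implantation sites, against 6.58, 6.52 and 6.53 at interimplantation sites. The interimplantation arrays were almost equal and all below the implantation arrays, and Pdia6 rose 1.43-fold (difference 0.51, SE 0.085, adjusted p = 0.00787). Dropping implantation array 1 or 3 ended the call (adjusted p = 0.0590 and 0.0544), and its dimmer probe set was at −0.027 (adjusted p = 0.938). Pdia3, the isomerase that works with calreticulin and calnexin on glycoproteins, was at 0.48 and just missed the threshold (adjusted p = 0.0594). Weighting the arrays or dropping interimplantation array 2 brought it past the threshold (adjusted p = 0.0369 and 0.0371). Pdia4 (0.36, with a dimmer probe set at −0.22), Pdia5 (0.18) and Creld2 (0.22), a secreted protein with isomerase-like activity, also had groups that did not overlap but were not called (adjusted p = 0.101, 0.422 and 0.331). Ero1a, the oxidase that recharges the isomerases, was at 0.069 with overlapping groups.

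The J-domain co-chaperones, which stimulate the ATPase of Hspa5, did not pass. Dnajb9 was at 0.31 (adjusted p = 0.0727), with 3.74, 3.71 and 3.74 at implantation sites, against 3.33, 3.47 and 3.45 at interimplantation sites. These groups did not overlap, although the signal was below the brightest Bacillus control. Dnajc3, at 0.079, and Dnajb11, at 0.0058, showed overlapping groups. Over the 16 chaperones and folding enzymes the groups lay apart with implantation higher in 11, where 8.02% of all genes did so, and apart with implantation lower in none, where 12.1% of all genes did so.

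The 2 listed ribosome-binding membrane proteins, Lrrc59 and Rrbp1, were called higher, each by its brightest probe set only. Lrrc59, a membrane protein of the rough ER that binds ribosomes, had the smallest adjusted p of the 52 genes. It read 8.14, 8.03 and 8.05 at implantation sites, against 6.85, 7.05 and 6.92 at interimplantation sites. Both groups were tight and more than 0.9 apart, and Lrrc59 rose 2.19-fold (difference 1.13, SE 0.086, adjusted p = 7.06e-05). It was called under all 15 alternative settings, at 0.69 to 1.53. Its other probe set was at 0.25 with overlapping groups (adjusted p = 0.424).

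Rrbp1, the ribosome receptor p180 of secretory cells, read 7.46, 7.96 and 7.51 at implantation sites, against 6.84, 7.13 and 7.06 at interimplantation sites. The groups did not overlap, implantation array 2 was the highest, and Rrbp1 rose 1.55-fold (difference 0.63, SE 0.13, adjusted p = 0.0260). Dropping implantation array 2, implantation array 3 or interimplantation array 3 ended the call (adjusted p 0.0596 to 0.0745), and its other probe sets were at 0.18 and 0.032.

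The channel itself was less clear. Sec61a1, the pore of the translocon, read 8.22, 7.92 and 8.04 at implantation sites, against 7.72, 7.85 and 7.78 at interimplantation sites by its brightest probe set, a difference of 0.28 that was not called (adjusted p = 0.183). The groups did not overlap, with implantation array 2 close to interimplantation array 2. Of its 6 probe sets, 5 were positive and 1 was called (0.44, adjusted p = 0.0400), with 6.49, 6.61 and 6.43 at implantation sites, against 5.87, 6.19 and 6.13 at interimplantation sites. Sec61b, a small subunit of the same channel, was at −0.12, and Sec62 and Sec63, which help post-translational import, were at −0.25 and 0.0031. The implantation arrays of Sec62 were all below its interimplantation arrays, but none of these 3 genes was called. Sec61b and Sec62 had means below the brightest Bacillus control.

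In the translocon-associated complex, Ssr4 read 7.97, 8.05 and 7.81 at implantation sites, against 7.42, 7.55 and 7.57 at interimplantation sites. The groups did not overlap and Ssr4 was called higher by 1.34-fold (difference 0.43, SE 0.091, adjusted p = 0.0322), but its 2 other probe sets were at −0.081 and −0.062. Without probe sets that can bind several transcripts the gene stood at −0.081 (adjusted p = 0.806), and its call was lost without any single array except implantation array 3 (adjusted p from 0.0559 to 0.149). Ssr1 (−0.0020), Ssr2 (0.19) and Ssr3 (−0.14) had overlapping groups and were not called.

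Steps before and after the channel showed no call. The measured genes of the signal recognition particle, Srp9, Srp14 and Srp68, were at 0.083, 0.021 and −0.15, with overlapping groups. None of them exceeded the brightest Bacillus control, so a missing call says little about them. The signal peptidase genes Spcs1, Spcs2, Spcs3, Sec11a and Sec11c ran from −0.098 to 0.064, all with overlapping groups. Only Spcs1 and Spcs2 exceeded the brightest Bacillus control. Spcs1 read 8.21, 8.13 and 8.26 at implantation sites, against 8.15, 8.33 and 8.31 at interimplantation sites, a bright gene with interleaved groups and a 95% interval from −0.25 to 0.13. The subunits of oligosaccharyltransferase, Rpn1 (0.20), Rpn2 (0.097), Ddost (−0.088), Dad1 (0.14) and Ostc (0.32), were not called either. By the brightest probe sets the groups lay apart among them for Rpn1 only. It read 6.89, 6.76 and 6.73 in implantation arrays, against 6.47, 6.70 and 6.61 in interimplantation arrays. All other, dimmer probe sets of Rpn1 were negative. Those at −0.11, −0.31 and −0.086 had groups apart with implantation lower, and that at −0.030 overlapped.

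**Figure D3:**
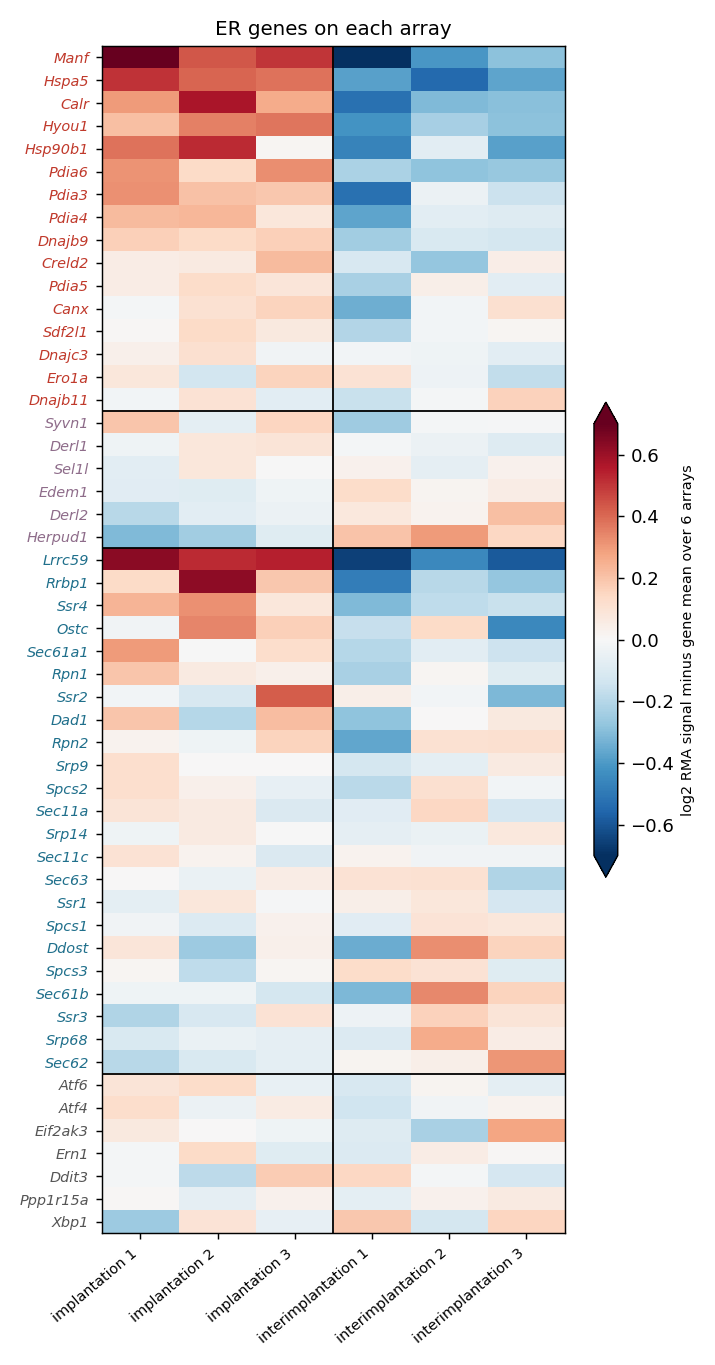
Levels of the 52 ER genes (rows) on each array (columns, implantation left of the line) as log2 RMA signal minus the gene's mean over the 6 arrays, from blue (low) to red (high), with colours saturating at 0.7 on either side. The upper block, chaperones and folding enzymes, is red at implantation and blue at interimplantation sites down to Dnajb9, the bottom block of sensors and effectors shows no such division, and the column of interimplantation array 1 is the bluest.

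Among the 6 degradation genes of the member list none was called higher. Herpud1, a membrane protein that gathers the ubiquitin ligase complex for misfolded proteins, read 5.92, 5.99 and 6.15 at implantation sites, against 6.43, 6.53 and 6.38 at interimplantation sites. All implantation arrays were below all interimplantation arrays, and Herpud1 fell by 0.43 on the log2 scale (SE 0.090, adjusted p = 0.0295), with its other probe set at −0.15 (adjusted p = 0.413). With arrays scaled to the hybridisation controls it lay at −0.031 (adjusted p = 0.893), and dropping any one of implantation arrays 1 and 2 and interimplantation arrays 2 and 3 ended the call (adjusted p 0.0561 to 0.157). Syvn1, the ubiquitin ligase itself, read 5.11, 4.85 and 5.07 at implantation sites, against 4.67, 4.91 and 4.91 at interimplantation sites (0.18, adjusted p = 0.468). Its groups overlapped. Derl2, of the exit channel, read 3.61, 3.73 and 3.76 at implantation sites, against 3.87, 3.82 and 4.01 at interimplantation sites (−0.21, adjusted p = 0.314). Edem1, a lectin that picks glycoproteins for degradation, read 4.66, 4.65 and 4.70 at implantation sites, against 4.86, 4.75 and 4.79 at interimplantation sites (−0.13, adjusted p = 0.521). For both the implantation arrays were the lower ones without overlap, but neither was called. Sel1l, the partner of Syvn1, and Derl1 were at 0.00093 and 0.095 with overlapping groups.

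None of the stress sensors was called. Ern1, the kinase and nuclease Ire1, read 6.21, 6.35 and 6.14 at implantation sites, against 6.12, 6.27 and 6.23 at interimplantation sites (0.023, 95% interval −0.17 to 0.22). Eif2ak3, the kinase Perk that slows translation, read 4.76, 4.69 and 4.66 at implantation sites, against 4.60, 4.46 and 4.97 at interimplantation sites (0.027, 95% interval −0.23 to 0.28). Atf6, a membrane-bound factor freed by proteolysis, read 5.24, 5.28 and 5.10 at implantation sites, against 5.04, 5.17 and 5.09 at interimplantation sites (0.11, 95% interval −0.078 to 0.30). The groups overlapped for all 3, and only Ern1 had a mean above the brightest Bacillus control.

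No effector downstream of the sensors was called either. Xbp1, the factor that Ire1 activates by splicing its mRNA, read 7.08, 7.44 and 7.28 at implantation sites, against 7.53, 7.22 and 7.49 at interimplantation sites (−0.14, 95% interval −0.39 to 0.10). Atf4, translated when Perk is active, read 7.72, 7.55 and 7.65 at implantation sites, against 7.45, 7.57 and 7.62 at interimplantation sites (0.093, 95% interval −0.095 to 0.28). Ddit3, the factor Chop of prolonged stress, read 5.38, 5.21 and 5.57 at implantation sites, against 5.53, 5.37 and 5.27 at interimplantation sites (−0.0087, 95% interval −0.24 to 0.23). The groups of these 3 genes were interleaved. Ppp1r15a, which restores translation after stress, read 6.37, 6.30 and 6.40 at implantation sites, against 6.29, 6.39 and 6.43 at interimplantation sites (−0.015, 95% interval −0.19 to 0.16). The intervals of all 7 genes ended below the difference of Hspa5, 0.86, within the limits of mouse probes on hamster RNA. Atf6, Eif2ak3 and Ddit3 had means below the brightest Bacillus control. Their intervals describe the probe signal and may not bound the difference in mRNA. The arrays measured mRNA level, so the splicing of Xbp1, the cleavage of Atf6 and the phosphorylation of Perk targets were not measured.

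**Figure D4:**
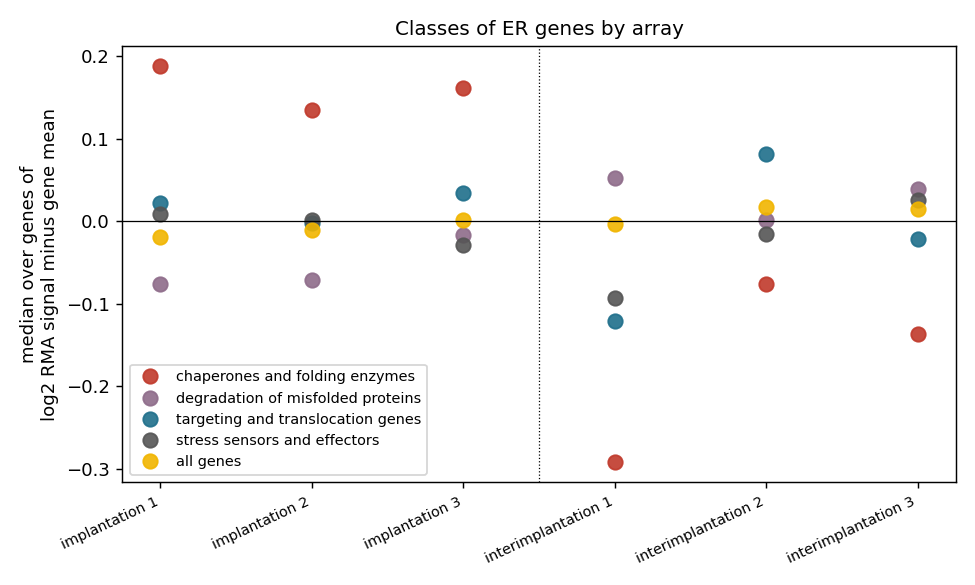
Median over the genes of each class of log2 RMA signal minus the gene's mean over the 6 arrays (vertical axis), for each of the 6 arrays, with all 12393 genes in yellow. Chaperones and folding enzymes lie at 0.13 to 0.19 on the implantation arrays and at −0.29 to −0.076 on the interimplantation arrays, with interimplantation array 1 lowest, while the sensors and effectors overlap between the groups.

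The chaperone class as a whole had a median of 0.19, 0.13 and 0.16 on implantation arrays 1 to 3, against −0.29, −0.076 and −0.14 on interimplantation arrays 1 to 3, after each gene was centred on its mean over the 6 arrays. The targeting and translocation class read 0.022, −0.0027 and 0.034 at implantation sites, against −0.12, 0.082 and −0.022 at interimplantation sites, and these groups overlapped. Interimplantation array 1 was the lowest of the 6 arrays for 28 of the 52 ER genes (53.8%) and for 11 of the 16 chaperones and folding enzymes, against 20.9% of all genes. Its hybridisation controls were also the brightest, at 7.27. Without this array 7 ER genes were called higher and 1 lower, and the chaperone median was 0.27. With each array's mean control signal added to the model, 3 ER genes (Hspa5, Pdia6 and Lrrc59) were called higher and none lower, at a chaperone median of 0.25. Over all genes that model called 41 higher (0.331%) and 77 lower. Scaling to the controls instead gave 13 higher ER calls, adding Dnajb9, Pdia3, Pdia4 and Ostc, and none lower.

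Several probe sets measured 32 of the 52 genes, and all of a gene's probe sets had the same sign in 11 of these and both signs in 21. Of the 9 called genes with several probe sets, 7 had probe sets of a single sign, the exceptions being Pdia6 and Ssr4. The 65 probe sets that did not stand for their gene were dimmer by construction, and 7 of them exceeded the brightest Bacillus control. Of the 65, 3 were called higher and none lower (1 each of Hspa5, Hyou1 and Sec61a1). Over all probe sets 1.26% were called higher and 1.05% lower. The median difference of the 65 was −0.016, that of all probe sets being −0.020. When the probe sets of each gene were averaged in place of taking the brightest, 6 ER genes were called higher (Hspa5, Hyou1, Manf, Calr, Lrrc59 and Dnajb9) and none lower.

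**Figure D5:**
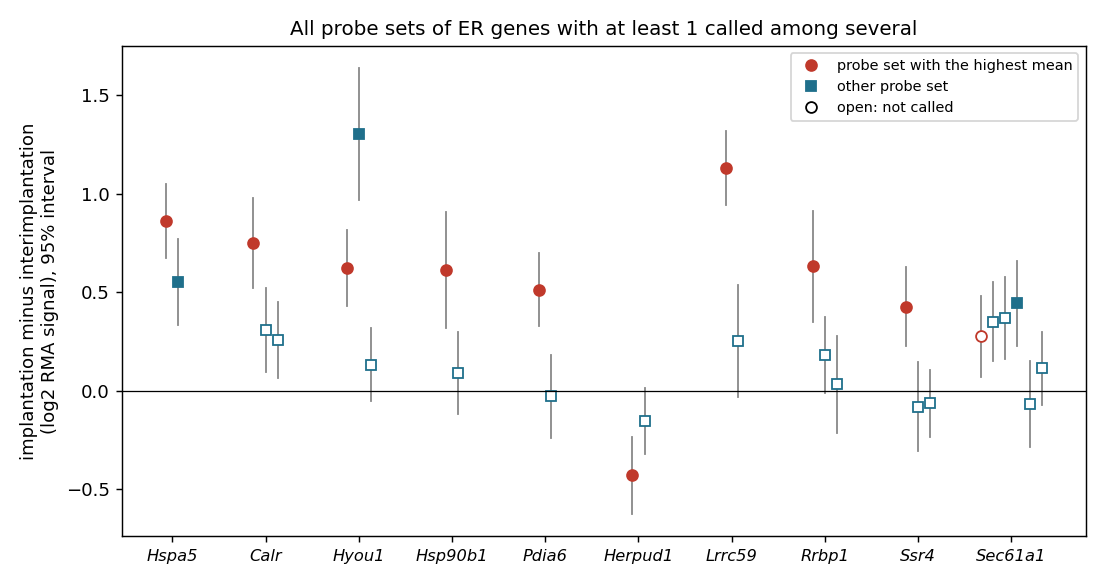
Differences (implantation minus interimplantation, log2 RMA signal, vertical axis) with 95% intervals of every probe set of the 10 ER genes that have several probe sets with at least 1 of them called. Red circles are the probe sets with the highest mean and blue squares the others, filled where called: both Hspa5 probe sets and 2 of 3 Hyou1 probe sets are filled, and the blue squares of Calr, Hsp90b1, Pdia6, Herpud1, Lrrc59, Rrbp1 and Ssr4 are open and closer to 0 than the red circle.

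Other genes of the same pathways, listed separately from the members, were called about as often as the background. Of 144 listed genes 123 were measured, and 2 were called higher (1.63%) and 2 lower (1.63%), against 1.36% and 1.18% of all genes. Vcp, the ATPase that pulls misfolded proteins out of the ER membrane, read 8.18, 7.99 and 8.16 at implantation sites, against 7.51, 7.37 and 7.26 at interimplantation sites (0.73, adjusted p = 0.00197). Its other probe set was at −0.19. Nomo1, a membrane protein associated with the translocon, was at 0.47 (adjusted p = 0.0136). Eif2ak4, the amino acid sensor Gcn2 of the integrated stress response, was called lower at −0.52 (adjusted p = 0.0411), and Sec61a2, a paralog of the channel subunit, at −0.41 (adjusted p = 0.0434). Traf2, an adaptor that binds active Ire1 (−0.37), Chac1, a target of Atf4 that degrades glutathione (0.33), and Rcn3, a calcium-binding ER protein (0.46), came next by p and were not called (adjusted p = 0.0727, 0.0731 and 0.101). Among 34 further folding and glycoprotein quality control genes none was called, at a median of 0.047, and among 35 further stress response genes the median was −0.084.

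Of 11 markers of uterine stroma and decidua, all measured, 7 exceeded the brightest Bacillus control, among them Hoxa10, Hoxa11 and Hand2, but neither Pgr nor Esr1 did. Wnt4, a signal needed for decidualization in the mouse, was called higher, as the only marker of any list to be so, at 6.06 ± 0.069 at implantation sites and 5.43 ± 0.19 at interimplantation sites (SD, n = 3 each, difference 0.63, limma adjusted p = 0.00633), with a mean below the brightest Bacillus control. Hand2, a stromal transcription factor, was at 0.58 with groups that did not overlap and was not called (adjusted p = 0.0685). Vim (−0.29), Pdgfra (−0.25), Hoxa11 (−0.22), Hoxa10 (−0.17), Prl8a2 (−0.065), Dcn (−0.049) and Col3a1 (−0.011) were negative. Col1a1 (0.15) and Bmp2 (0.056) were positive, and none of these was called. The median difference of the 11 markers was −0.049. The mean of the 11 markers was 6.33 to 6.46 at implantation sites, against 6.28 to 6.44 at interimplantation sites, and overlapped. Some other cell type lists differed in their mean level beside the ER genes. The mean level of 13 measured markers of the uterine epithelium (of 14 listed) was 5.19 to 5.27 at implantation sites, against 5.51 to 5.60 at interimplantation sites. Of them 3, Cldn7, Wnt7b and Cd24a, were called lower. Cd24a was at −1.99, but the median difference of the list was −0.11. Epcam (−0.013) and Krt19 (0.00068) hardly differed, and Ltf was higher at 0.22, not called. The mean level of 11 smooth muscle markers (of 12) was 5.32 to 5.54 at implantation sites, against 5.75 to 5.93 at interimplantation sites. Of them 2, Actg2 (−1.74) and Tagln (−1.26), were called lower. The median difference of this list was −0.25, and Des (0.13), Cald1 (0.096) and Myh11 (0.059) were positive. Plasma and B cell markers, of which 8 of 11 were measured and 2 exceeded the brightest Bacillus control, were at 4.93 to 4.96 at implantation sites, against 4.95 to 5.04 at interimplantation sites, with none called. The same held for macrophage markers (8 of 8), at 5.15 to 5.26 at implantation sites, against 5.02 to 5.23 at interimplantation sites. Endothelial markers (8 of 8) were at 4.74 to 4.78 at implantation sites, against 4.78 to 4.89 at interimplantation sites, with none called. Markers of trophoblast and embryo (9 of 9, 1 above the brightest Bacillus control) were at 4.44 to 4.52 at implantation sites, against 4.55 to 4.62 at interimplantation sites, and erythroid markers (4 of 7, none above it) at 4.73 to 4.78 at implantation sites, against 4.81 to 4.87 at interimplantation sites. No marker of these last 2 lists was called. The part of any of these cell types in the differences of the ER genes was not tested.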

How the data were processed

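The deposited table held 1 log2 signal per probe set and array. The authors used Partek 6.6 and RMA, per the submitters' processing notes. The order of their steps and the log base are not given in the sources used here, and base 2, on which the folds depend, was taken because RMA normally gives it and the values fit that range. Of 22690 probe sets, 64 controls were left out and 22626 tested without a filter on level. Platform annotation gave 20380 of these 1 gene symbol, 691 several and 1555 none. All 52 measured ER genes had a symbol in the hamster RefSeq annotation BCM_Maur_2.0. No genome or sequence was used.

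The 3 implantation arrays were compared with the 3 interimplantation arrays with limma 3.58.1 under R 4.3.3 (linear model and empirical Bayes, group as the only term, two-sided, Benjamini-Hochberg adjustment over the 22626 probe sets). The calculation was tested on simulated data. A depth per array does not apply, and the number of arrays limits the precision. Alternatives were a replicate block, a trended and robust variance, array weights, scaling to or adjusting for 18 hybridisation controls, repeated quantile normalization, leaving out dim or shared probe sets, averaging the probe sets of a gene, and leaving out each array.

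The members, the lists and the alternatives were chosen with earlier results of these data known. Every measured member was named. Values on every array were given for called members, the 4 of each class with the smallest p, all sensors and effectors, and members whose probe sets differed in sign with 1 called. Values on every array of Dnajb9, Spcs1, Rpn1 and Vcp were added after they were seen, and the cell type markers named in the text were chosen after theirs were. Of the other pathway genes, the called ones and the next 3 by p were named.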

Additional observations from a re-analysis of the deposited data

How the results depend on the processing

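Hspa5 and Lrrc59 were called under every alternative that measured them. Over the 52 genes and their alternatives, 731 of the gene results kept their side of the threshold. Further, 31 calls were lost with their sign kept, 7 were gained, and 1 was lost with a change of sign (Ssr4, −0.081 without shared probe sets). Sign changes of genes that were not called are not part of these counts. For example, Derl1 ran from −0.34 to 0.49 and Xbp1 from −0.24 to 0.25 over the alternatives. Scaling to the hybridisation controls gave 752 probe sets higher and 13 lower, 0 ER genes lower, and medians of 0.73 for chaperones, 0.43 for targeting and translocation and 0.42 for sensors and effectors, where the median of all genes was 0.38. This follows from the shift of each array by its control level. The control level as a covariate gave 77 probe sets higher and 130 lower, 3 ER genes higher and 0 lower, and a chaperone median of 0.25. Without probe sets that can bind several transcripts, 138 were higher and 96 lower, 42 ER genes were measured and 5 called higher, and the chaperone median was 0.22. Fewer genes were measured there. Averaging the probe sets of each gene, 0 ER genes were lower and the chaperone median was 0.23. With array weights 363 probe sets were lower. Why the covariate, the gene mean and the weights changed these values was not tested.

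Leaving out 1 array gave 117 to 329 probe sets higher and 88 to 401 lower, 6 to 9 ER genes higher and 0 to 1 lower, with chaperone medians of 0.27 to 0.37. The lower call, Herpud1, was lost without implantation replicate 1 or 2 and without interimplantation replicate 2 or 3. The numbers were not taken as pairs, because the sources do not say that equal numbers mark the same animal. Deviations of arrays with the same number correlated at −0.090, 0.071 and −0.028. With so few arrays per group these correlations cannot decide whether the sites shared animals. With the replicate number as a block, 9 ER genes were called higher and 1 lower, as without it. The few arrays and the mouse probes limit what a missing call can show.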
